A study of Mus musculus with 6 samples.

Results

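The genes examined were 9 genes of direct-pathway spiny neurons of the striatum, the projection neurons that carry the D1 dopamine receptor: Drd1, Tac1, Pdyn, Isl1, Eya1, Ebf1, Chrm4, Slc35d3 and Sfxn1. They were taken from a list of names, each matched by its GENCODE symbol to 1 Ensembl identifier among the 55335 in the count files, and all 9 were counted in all 6 libraries. The study asked what changes in mouse striatum when PDE5A, a phosphodiesterase that breaks down cyclic GMP, is overexpressed. RNA-seq had been run on striatum of C57 mice in 3 samples whose genotype label was PDE5A overexpression (OE) and 3 control samples (titled NC) whose genotype label was wild type. The sources used here do not state the promoter, vector or cells through which PDE5A was raised, the handling of the controls or the age of the mice. They also do not say that each sample was a separate animal, so p-values measure only how these samples spread, which could be technical.

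Spiny neurons make up most of the striatum and fall into a direct-pathway kind, which projects to the output nuclei of the basal ganglia, and an indirect-pathway kind, which reaches them through the external pallidum. Direct-pathway neurons respond to dopamine through the D1 receptor, which raises cyclic AMP, and use substance P and dynorphin as peptide co-transmitters. Indirect-pathway neurons carry the D2 receptor, the adenosine A2a receptor and the enkephalin precursor (Drd2, Adora2a, Penk). Ppp1r1b encodes DARPP-32, a phosphatase inhibitor present in both kinds, and served here as a measure of spiny neuron RNA in each library.

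Depth was 33013698 to 39271447 counts in the 3 OE libraries and 40653784 to 42288789 counts in the 3 control libraries. Pde5a had 30018, 23287 and 22170 counts in the OE libraries, against 156, 170 and 246 in the control libraries, so the groups did not overlap for the overexpressed gene. All 20 listed genes shared by spiny neurons were tested, and their summed level ran from 7696 to 15239 CPM (read counts scaled to library size) in OE and from 8924 to 15358 CPM in control. Their order over the libraries was nearly the reverse of that of 11 cortical glutamatergic markers, led by Slc17a7 and Lamp5, whose summed level was 420, 755 and 1414 CPM in OE and 652, 217 and 1099 CPM in control. Choroid plexus markers, led by Ttr and Enpp2, stood high in OE replicate 1 (915 CPM summed) and OE replicate 2 (3417 CPM), against 316 CPM in OE replicate 3 and 321 to 451 CPM in control. In bulk tissue, fewer cells of a type and less RNA per cell cannot be told apart.

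None of the 9 genes passed the test between OE and control. The threshold was a Benjamini-Hochberg adjusted p of 0.05 over 19809 genes in edgeR's quasi-likelihood fit, at which 1 gene (0.00505%), Pde5a, was called. The adjusted p of each of the 9 genes was 0.999963, 0 of the 9 had an unadjusted p under 0.05 (3.89% of all genes did), and 0 were called by the DESeq2 Wald test, which called 83 genes (0.419%). Fold changes were positive for 4 genes and negative for 5, from −0.48 to 0.11 on the log2 scale, with a median of −0.03 beside 0.0016 over all genes tested. In CPM the OE and control libraries overlapped for all 9 genes, while they did not overlap for 8.93% of all genes (4.81% higher and 4.11% lower in OE). Apart from Eya1 and Sfxn1, the members varied widely between libraries of the same group, and their SD over the libraries was lower once they were divided by Ppp1r1b.

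Drd1 (ENSMUSG00000021478), which encodes the D1 dopamine receptor itself, lies on the minus strand of chromosome 13 from 54051183 to 54055705 (GRCm38, the same assembly as mm10). It had 249, 198 and 120 CPM in OE replicates 1 to 3, against 187, 251 and 141 CPM in control replicates 1 to 3. OE replicate 1 and control replicate 2 were about level at the top and OE replicate 3 was lowest, so the groups overlapped throughout. The means were 189 ± 65.2 CPM in OE and 193 ± 55.4 CPM in control (SD, n = 3 each), a log2 fold change of −0.03 with a 95% interval of −0.83 to 0.77, which is a fold of 0.56 to 1.71. The data therefore leave room for a change in Drd1 of that size in either direction.

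Chrm4 (ENSMUSG00000040495, chromosome 2, plus strand, 91927249 to 91928688) encodes the M4 muscarinic acetylcholine receptor, which lowers cyclic AMP and opposes D1 signalling in these neurons. Its annotated model is 1440 bases of coding sequence, so counts in its untranslated ends may be missing. It had 44.9, 36.5 and 30.4 CPM in OE, against 34.5, 42.9 and 27.3 CPM in control, with OE replicate 1 and control replicate 2 highest, as for Drd1, and control replicate 3 lowest. The log2 fold change was 0.09 (95% interval −0.38 to 0.57). The CPM ratio of Drd1 to Chrm4, a pair chosen after the values were seen and not tested, was 5.56, 5.42 and 3.94 in OE and 5.44, 5.85 and 5.15 in control, so OE replicate 3, the library with the highest cortical marker level, had the lowest ratio; the part of cortical RNA in this was not tested.

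Tac1 encodes the precursor of the tachykinins substance P and neurokinin A (ENSMUSG00000061762, chromosome 6, plus strand, 7554879 to 7565834). Pdyn encodes prodynorphin, the precursor of the kappa opioid peptides (ENSMUSG00000027400, chromosome 2, minus strand, 129686565 to 129699844). Each peptide is cut from its precursor at pairs of basic residues and carries a short receptor-binding core. The stretches of Tac1 around its 2 cores, read from GENCODE M21 transcripts, are given because they show which isoforms encode which tachykinin, 5′ to 3′ on the plus strand of GRCm38, with the codons of the conserved core in capitals.
Tac1 core of substance P, chr6:7556741-7556773: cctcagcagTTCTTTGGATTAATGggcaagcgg
Tac1 core of neurokinin A, chr6:7559107-7559139: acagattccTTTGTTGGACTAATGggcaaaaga
Both stretches lie in coding exons. The substance P stretch is in Tac1-201, Tac1-203 and Tac1-205. The neurokinin A stretch is in the transcripts Tac1-203 and Tac1-205 and not in Tac1-201, and counts per gene do not separate these isoforms.

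Tac1 had 179, 151 and 86.0 CPM in OE, against 115, 163 and 107 CPM in control. The groups overlapped, with OE replicate 1 highest and OE replicate 3 lowest. The means were 139 ± 47.8 CPM in OE and 128 ± 30.0 CPM in control (SD, n = 3 each), a log2 fold change of 0.11 with a 95% interval of −0.63 to 0.85, the highest estimate of the 9 genes. Pdyn had 85.8, 74.7 and 53.0 CPM in OE, against 65.0, 102 and 63.0 CPM in control. Its control replicate 2 was highest and its OE replicate 3 lowest, and its log2 fold change was −0.11 (95% interval −0.72 to 0.51). The ratio of Tac1 to Pdyn, chosen in the same way, was 2.09, 2.02 and 1.62 in OE and 1.77, 1.603 and 1.70 in control, which overlapped.

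**Figure D1:**
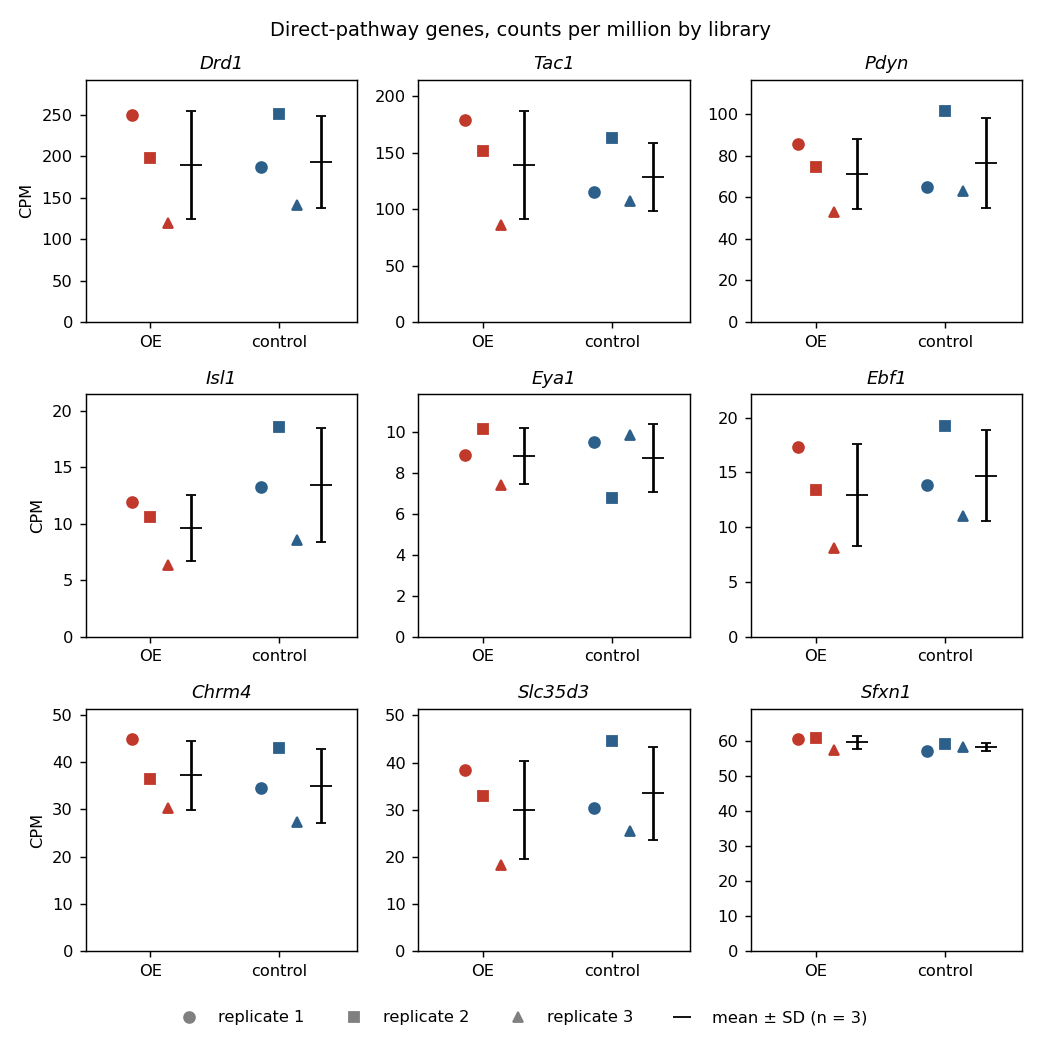
CPM (vertical axes from 0) of the 9 direct-pathway genes in each OE library (red, left) and control library (blue, right), with the mean and SD of 3 libraries beside each group. The groups overlap in every panel, and Sfxn1 is nearly level, from 56.97 to 60.8 CPM.

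Among the transcription factors, Isl1, a LIM-homeodomain factor needed for the direct-pathway fate, had the lowest fold change of the 9 genes. Isl1 (ENSMUSG00000042258, minus strand of chromosome 13, 116298281 to 116309689) had 11.96, 10.6 and 6.38 CPM in OE, against 13.2, 18.6 and 8.54 CPM in control. Control replicate 2 was highest and OE replicate 3 lowest, and OE replicates 1 and 2 lay above control replicate 3, so the groups overlapped. The means were 9.64 ± 2.91 CPM in OE and 13.4 ± 5.01 CPM in control (SD, n = 3 each), a log2 fold change of −0.48 with a 95% interval of −1.30 to 0.34.

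Ebf1, a helix-loop-helix factor of direct-pathway neuron differentiation (ENSMUSG00000057098, chromosome 11, plus strand, 44617317 to 45008091), had 17.3, 13.4 and 8.09 CPM in OE, against 13.9, 19.2 and 11.1 CPM in control, with control replicate 2 and OE replicate 1 highest and OE replicate 3 lowest, and its log2 fold change was −0.19 (95% interval −0.96 to 0.58). Pericytes also express Ebf1, and 6 pericyte markers, led by Rgs5 and Vtn and none at 0, summed to 160 to 185 CPM in OE and 149 to 186 CPM in control. Of these markers 4 had positive and 2 negative log2 fold changes (median 0.13), with 0 called. Vtn (0.26) was higher in OE without overlap in CPM, as were 4.81% of all genes, while Rgs5 was at −0.11. Eya1, a transcriptional coactivator that also has phosphatase activity (ENSMUSG00000025932, chromosome 1, minus strand, 14168954 to 14310235), had 8.87, 10.2 and 7.42 CPM in OE, against 9.52, 6.80 and 9.85 CPM in control, a log2 fold change of 0.01 (95% interval −0.41 to 0.44). Its order of libraries was not that of Drd1: control replicate 2, where Drd1 was highest, had the lowest Eya1.

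Slc35d3 and Sfxn1 encode membrane transport proteins. Slc35d3, an orphan member of the nucleotide-sugar transporter family that in mice takes part in D1 receptor trafficking (ENSMUSG00000050473, chromosome 10, minus strand, 19847916 to 19851459), had 38.5, 32.8 and 18.3 CPM in OE, against 30.5, 44.5 and 25.4 CPM in control, in the library order of Drd1, with a log2 fold change of −0.16 (95% interval −0.98 to 0.65). Sfxn1, a mitochondrial serine transporter (ENSMUSG00000021474, chromosome 13, plus strand, 54071869 to 54108342), is a neighbour of Drd1, and 16163 bases separate the 2 genes, which lie on opposite strands. It had 60.4, 60.8 and 57.3 CPM in OE, against 56.97, 59.1 and 58.2 CPM in control. The highest and lowest of these differ 1.07-fold, where those of its neighbour Drd1 differ 2.09-fold. The 95% interval of the log2 fold change of Sfxn1, −0.11 to 0.18 around 0.03, was the narrowest of the 9 and excludes a fold above 1.13.

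**Figure D2:**
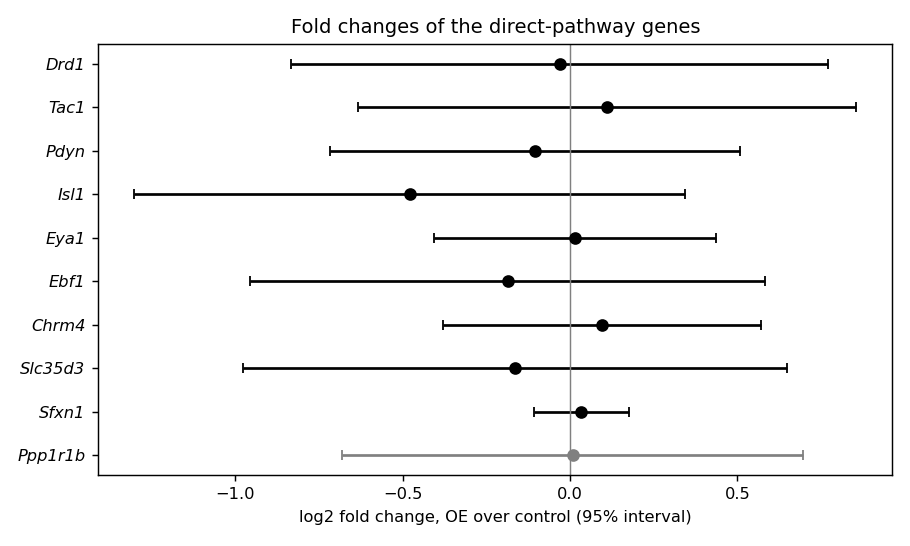
Log2 fold change of each direct-pathway gene and of Ppp1r1b (grey), OE over control, with its 95% interval from edgeR's quasi-likelihood fit on 3 libraries per group. Every interval includes 0, from the widest for Isl1 (−1.30 to 0.34) to the narrowest for Sfxn1 (−0.11 to 0.18).

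Per kilobase of annotated exon, the receptor and peptide genes stood highest and the transcription factors lowest. Over the 6 libraries Drd1 averaged 52.7 ± 14.9 CPM per kilobase (SD, n = 6), Tac1 39.3 ± 10.6, Pdyn 25.6 ± 6.08, Chrm4 25.1 ± 4.77, Slc35d3 12.05 ± 3.53, Sfxn1 5.97 ± 0.162, Isl1 2.91 ± 1.06, Ebf1 1.42 ± 0.415 and Eya1 1.123 ± 0.175 CPM per kilobase. Ppp1r1b averaged 511 ± 130 on the same scale. Each gene in this order was above the next in 6 of 6 libraries, except that Pdyn was above Chrm4 in 3 and Ebf1 above Eya1 in 4. These 2 pairs of neighbours did not differ beyond their spread. Exon length was the union of all annotated exons, so long untranslated ends that are little used lower the value of a gene such as Sfxn1 or Ebf1.

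The expression profile over the 6 libraries divided the 9 genes. Drd1, Tac1, Pdyn, Isl1, Ebf1, Chrm4 and Slc35d3 were each lower in OE replicate 3 and in control replicate 3 than in any other library of the same group, as was Ppp1r1b, which had 1907, 1600 and 991 CPM in OE and 1454, 1887 and 1133 CPM in control. Eya1 and Sfxn1 did not share the profile: Eya1 was highest in OE replicate 2, and Sfxn1 was nearly level. The SD of log2 CPM over all 6 libraries was 0.43 for Drd1, 0.41 for Tac1, 0.53 for Isl1 and 0.04 for Sfxn1, with a median of 0.41 over the 9 genes beside 0.18 over all genes tested. The cortical markers ran nearly the other way and were lowest in control replicate 2 and OE replicate 1 and highest in OE replicate 3 and control replicate 3. The part of cortical RNA in the members' spread was not tested beyond a fit with the cortical level as a covariate, in which 0 members were called and the median log2 fold change was 0.047.

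**Figure D3:**
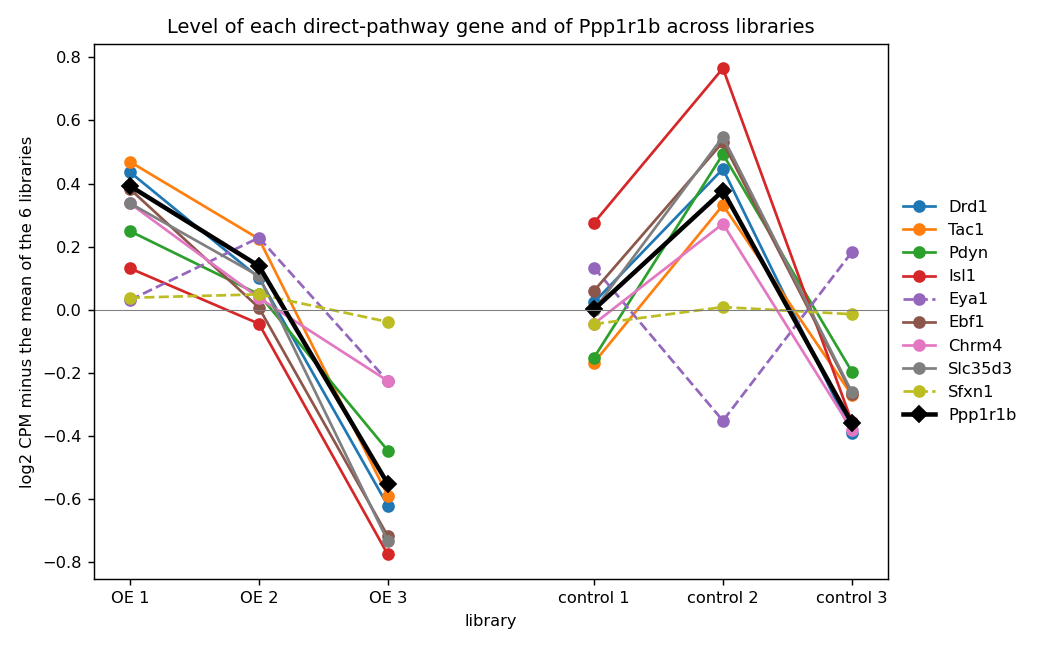
Level of each direct-pathway gene and of Ppp1r1b (black diamonds) in the 6 libraries, as log2 CPM minus the gene's mean over all libraries; lines join a gene's points within a group and show no order of replicates. Solid lines (7 genes) follow Ppp1r1b, while Eya1 and Sfxn1 (dashed) do not.

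Among the 10366 other genes with a mean of at least 10 CPM, those whose centred log2 CPM lay nearest to that of Drd1 over the 6 libraries included Syndig1l, Rgs9, Htr1b and Rasd2. Their root mean square differences from Drd1 were 0.026 to 0.038 on the log2 scale. Drd2, the receptor of the indirect pathway, was at rank 6, and Ppp1r1b was at rank 10. Nearest among the members were Ebf1 at rank 37, Slc35d3 at rank 38 and Tac1 at rank 74, and Sfxn1 was at rank 3620. The profile of Drd1 was thus no nearer to those of other direct-pathway genes than to those of Drd2 and Ppp1r1b.

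Dividing by Ppp1r1b lowered the spread of the 7 genes that followed it, by unequal amounts. Per 1000 CPM of Ppp1r1b, Drd1 had 131, 124 and 121 CPM in OE, against 129, 133 and 124 CPM in control. The highest and lowest library then differed 1.10-fold, in place of 2.09-fold, and the SD of the log2 values was 0.05 in place of 0.43. On this scale Tac1 had 93.9, 94.5 and 86.8 in OE and 79.3, 86.3 and 94.7 in control, and Pdyn had 45.0, 46.7 and 53.4 in OE and 44.7, 53.8 and 55.7 in control. The SD of the log2 values after scaling was 0.10 for Tac1, 0.14 for Pdyn, 0.13 for Ebf1 and 0.12 for Slc35d3, in place of 0.41, 0.34, 0.45 and 0.45. The reduction was least for Chrm4, at 0.16 in place of 0.28, and for Isl1, at 0.27 in place of 0.53. The median SD of the scaled log2 values was 0.14 over the 9 genes and 0.17 over 10 indirect-pathway genes. It was 0.08 over the 20 shared genes (Ppp1r1b included, at 0 by construction) and 0.43 over all genes tested. For Sfxn1 the division did the opposite and raised the SD to 0.36, and for Eya1 to 0.47, because the division carried the spread of Ppp1r1b into genes that did not follow it.

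After scaling, 3 of the 9 genes were lower in all OE libraries than in any control library, namely Isl1, Ebf1 and Slc35d3, and 0 were higher. Over all genes 0.994% were lower and 0.934% higher without overlap on this scale, 1.93% in all; most genes do not follow Ppp1r1b and carry its spread when scaled, so this share is a low mark for genes that do follow it. Isl1 had 6.27, 6.62 and 6.44 CPM per 1000 CPM of Ppp1r1b in OE, against 9.09, 9.83 and 7.54 in control. The means were 6.44 ± 0.174 in OE and 8.82 ± 1.17 in control (SD, n = 3 each), a difference of −0.44 on the log2 scale.

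The other 2 differences were smaller. Ebf1 had 9.09, 8.35 and 8.16 in OE and 9.53, 10.2 and 9.77 in control (−0.20 on the log2 scale). Slc35d3 had 20.2, 20.5 and 18.5 in OE and 20.96, 23.6 and 22.5 in control (−0.18). The exact two-sided permutation test gave p = 0.1 for each of the 3 genes, the smallest that 3 samples against 3 can give, and p = 0.3 after Benjamini-Hochberg adjustment over the 12 ratios tested. A fit over all genes with the Ppp1r1b count as library size, added after the data were seen, called 0 of the 9 genes, 46 of all genes being called (0.232%), and 0 of the 9 had an unadjusted p under 0.05, where 1.59% of all genes did. Its 95% intervals were −1.27 to 0.36 for Isl1, −1.01 to 0.60 for Ebf1 and −0.98 to 0.62 for Slc35d3. When the 20 shared genes were used in place of Ppp1r1b, Isl1 and Ebf1 were still lower without overlap and Slc35d3 overlapped, where 0.833% of all genes were lower and 0.989% higher without overlap. With the summed count of those 20 genes as library size 0 of the 9 were called, beside 0.242% of all genes, and 0 had an unadjusted p under 0.05, beside 1.6%. Drd2 and Penk were also lower without overlap relative to Ppp1r1b, as were 2 of the 20 shared genes, Gng7 and Meis2, so separation on this scale was also seen outside the direct-pathway genes. The 20 shared genes include Ppp1r1b, which cannot separate on its own scale.

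**Figure D4:**
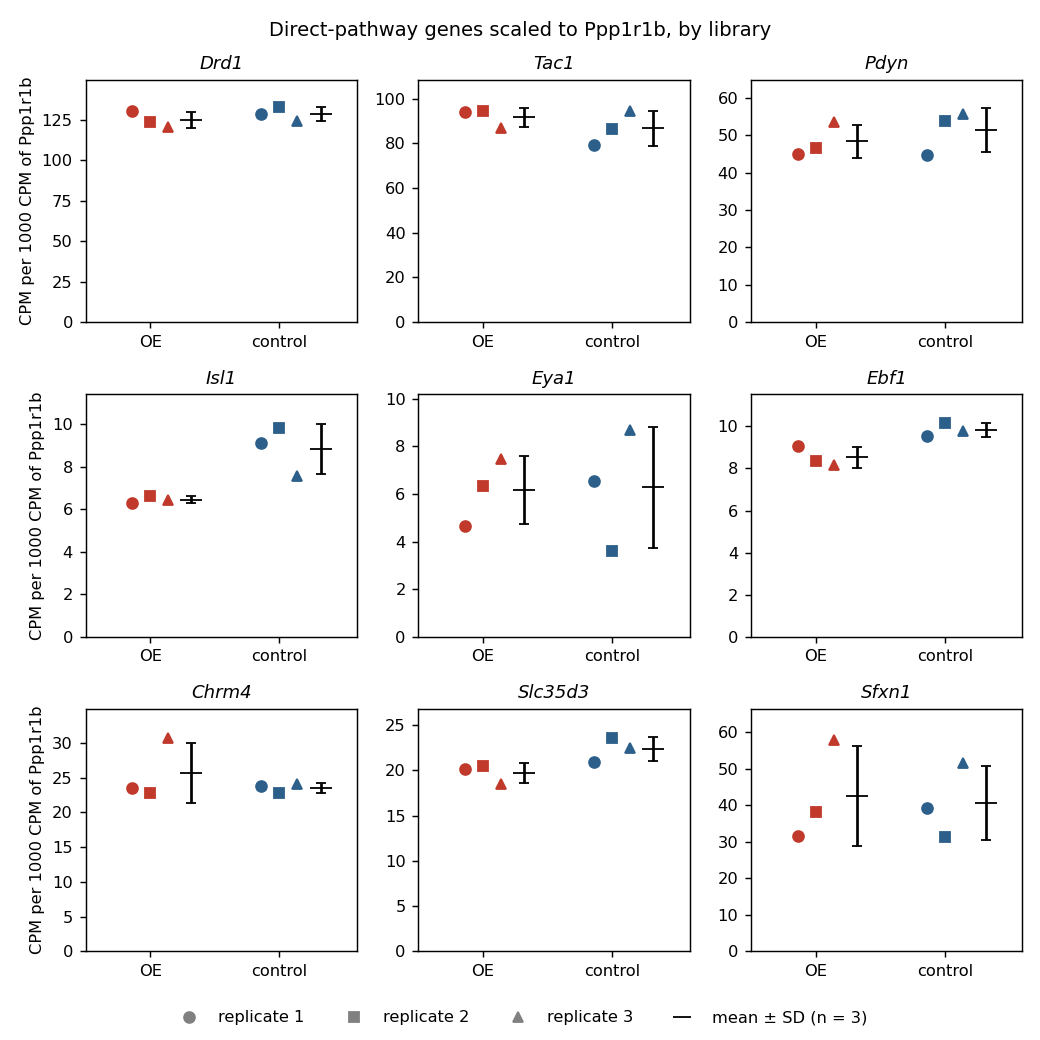
CPM of each direct-pathway gene per 1000 CPM of Ppp1r1b (vertical axes from 0), OE libraries in red on the left and control libraries in blue on the right, with the mean and SD of 3 libraries. Isl1, Ebf1 and Slc35d3 lie lower in every OE library than in any control library, while Drd1 stays between 121 and 133 in all 6.

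Isl1 is also expressed by the cholinergic interneurons of the striatum, whose markers were mostly lower in OE on the same scale. Of 6 such markers, all had negative log2 fold changes, from −0.76 to −0.20, with 0 called and none at 0 in any library. Per 1000 CPM of Ppp1r1b their summed level was 49.99, 46.2 and 37.8 in OE, against 64.8, 71.5 and 62.0 in control, which did not overlap. On this scale Slc5a7, the choline transporter, had 18.3, 16.6 and 12.7 in OE and 28.4, 28.3 and 25.3 in control. Chat, which encodes the enzyme that makes acetylcholine, had 7.37, 7.45 and 5.82 in OE and 11.0, 10.9 and 9.13 in control, and Slc18a3 and Lhx8 were lower without overlap as well. The ratio of Isl1 to Chat was 0.850, 0.889 and 1.11 in OE and 0.823, 0.904 and 0.825 in control, and overlapped (0.15 on the log2 scale). The ratio of Isl1 to Slc5a7 was 0.342, 0.399 and 0.509 in OE and 0.3197, 0.347 and 0.298 in control, a difference of 0.36 on the log2 scale, and only OE replicate 1 lay within the control range. Both pairs were chosen after the values were seen and were not tested. Negative fold changes were not limited to cholinergic markers. All 8 thalamic markers, led by Rora and Plekhg1, were negative (median −0.46, 3 lower without overlap in CPM), as were all 8 astrocyte markers, led by Slc1a2 and Aldoc (median −0.20, 5 lower without overlap), and all 8 oligodendrocyte markers, led by Mbp (median −0.11, 0 without overlap). Of 5 hypothalamic and septal markers tested, led by Lhx2 and Zic1, 4 were negative, Zic1 at −0.41. In these 4 lists 0 genes were called. In CPM, 0 of the 6 cholinergic markers were lower without overlap, beside 4.11% of all genes. Relative to Ppp1r1b, 4 of the 6 cholinergic, 1 of the 8 thalamic and 1 of the 5 hypothalamic and septal markers were lower without overlap. The share of all genes was 0.994%, a low mark for genes that follow Ppp1r1b. On that scale 0 of the 8 astrocyte and 0 of the 8 oligodendrocyte markers were lower without overlap. Scaling lowered the median SD of the cholinergic markers (0.60 to 0.34, log2). It raised that of the thalamic (0.42 to 0.58), astrocyte (0.15 to 0.39) and oligodendrocyte markers (0.18 to 0.37), so the scaled counts are not alike between lists. The part of any of these cells in the lower scaled Isl1 was not tested.

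**Figure D5:**
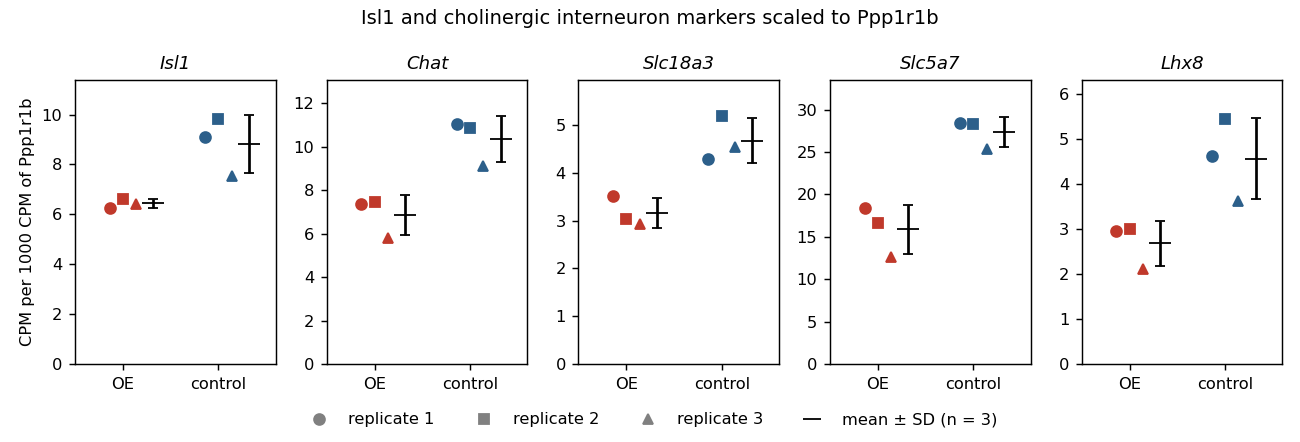
CPM per 1000 CPM of Ppp1r1b (vertical axes from 0) of Isl1 and of 4 markers of cholinergic interneurons, OE in red on the left and control in blue on the right, with the mean and SD of 3 libraries. All 5 genes lie lower in each OE library than in any control library, Isl1 at a mean of 6.44 in OE and 8.82 in control.

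The 2 kinds of spiny neuron were also compared by ratios within each library. The CPM ratio of Drd1 to Drd2 was 1.32, 1.27 and 1.29 in OE, against 1.27, 1.22 and 1.23 in control, a difference of 0.06 on the log2 scale, and OE replicate 2 lay just below control replicate 1. The ratio of Tac1 to Penk was 0.203, 0.205 and 0.194 in OE, against 0.163, 0.153 and 0.185 in control. It was higher in each OE library than in any control library, by 0.27 on the log2 scale, with an exact two-sided permutation p of 0.1 and an adjusted p of 0.3 over the 12 ratios. The ratio of Pdyn to Penk was 0.0973, 0.101 and 0.119 in OE and 0.0918, 0.0954 and 0.108 in control, and overlapped. Of the 10 indirect-pathway genes tested 1 had a positive log2 fold change and 9 a negative one, with a median of −0.11, and 0 were called. The mean log2 CPM of the 9 direct-pathway genes minus that of the indirect-pathway genes was −0.54 ± 0.15 in OE and −0.54 ± 0.050 in control (SD, n = 3 each). By library it was −0.48, −0.43 and −0.71 in OE and −0.57, −0.48 and −0.56 in control. Each list holds genes that did not follow Ppp1r1b, such as Eya1 and Sfxn1 or Grik3 and Plxdc1. The difference therefore does not measure the balance of the 2 kinds of neuron alone.

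Of 22 genes of D1 receptor signalling, which carry the signal from the receptor to cyclic AMP, kinases and phosphatases, 9 had positive and 13 negative log2 fold changes, from −0.23 to 0.18 with a median of −0.01, and 0 were called. The smallest p values belonged to Cdk5, a kinase that phosphorylates DARPP-32, at 75.1 ± 3.06 CPM in OE and 70.3 ± 3.61 CPM in control, Rgs4, a regulator of G protein signalling, at 685 ± 152 CPM in OE and 605 ± 130 CPM in control, and Gng7, the gamma subunit paired with the striatal stimulatory G protein, at 812 ± 302 CPM in OE and 949 ± 254 CPM in control (SD, n = 3 each). Gng7 is the 1 gene of this list that was lower in OE without overlap once scaled to Ppp1r1b.

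Of 14 genes that process neuropeptides or encode tachykinin and opioid receptors, 7 had positive and 7 negative log2 fold changes, with a median of −0.01, and 0 were called. Oprd1, the delta opioid receptor, had 19.3, 11.6 and 14.5 CPM in OE, against 20.1, 21.4 and 19.3 CPM in control, a log2 fold change of −0.42 (SE 0.18), with an unadjusted p of 0.0441 and an adjusted p of 0.999963 in edgeR's quasi-likelihood fit. Scg5, a chaperone of the convertase Pcsk2, had 138.5, 145 and 155 CPM in OE and 132, 132 and 137.6 CPM in control. It was narrowly higher in OE without overlap, as were 4.81% of all genes, with an unadjusted p of 0.109 in the same fit. Tacr3, a tachykinin receptor, had 5.26 ± 1.33 CPM in OE and 7.79 ± 3.77 CPM in control (SD, n = 3 each).

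Direct-pathway neurons lie in striosomes, where Pdyn is enriched, and in the surrounding matrix. Of 7 striosome genes 2 had positive and 5 negative log2 fold changes, with a median of −0.05, and of 4 matrix genes 1 and 3, with a median of −0.04, and 0 were called in either list. Lypd1, a striosome gene, had 58.9, 62.1 and 46.3 CPM in OE, against 64.3, 79.0 and 110 CPM in control. The groups did not overlap, where 4.11% of all genes were lower in OE without overlap in CPM. The log2 fold change was −0.60 (SE 0.21), with an unadjusted p of 0.0289 and an adjusted p of 0.999963 in edgeR's quasi-likelihood fit. Per 1000 CPM of Ppp1r1b, Lypd1 had 30.9, 38.8 and 46.7 CPM in OE, against 44.3, 41.9 and 96.7 CPM in control, and overlapped. Of the other striosome genes, Bach2 had 8.65 ± 0.460 CPM in OE and 9.74 ± 1.14 in control, and Oprm1, the mu opioid receptor, had 1.53 ± 0.885 CPM in OE and 2.02 ± 0.432 in control (SD, n = 3 each). Of the matrix genes, Id4, Gda and Epha4 had log2 fold changes of −0.19, −0.06 and −0.02.

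Because 7 of the 9 genes followed 1 profile and D1 receptors act through cyclic AMP, the upstream windows of the members were searched for the binding motif of the cyclic AMP response factor CREB (TGACGTCA), for its first 5 letters (TGACG) and for the 10-letter Ebf consensus motif, on both strands. RefSeq (GRCm38.p6) gave 11 windows of 250 bases before a start site for 8 of the 9 genes, with none used for Eya1. Some of these start sites are internal. The windows of Ebf1, and a further window each of Drd1 and Pdyn, lay wholly inside the annotated gene, so no window of Ebf1 lay upstream of the whole gene. The full motif and the Ebf motif were in 0 of the 11, where 1.55% and 0.779% of 32851 windows of all genes held them. The 5-letter motif, which is contained in the full one, was in the windows of Tac1, Slc35d3 and Isl1, where 17.8% of all windows held it. Tac1 held 2 matches, 197 and 43 bases before the start site, Slc35d3 1 at 149 bases and Isl1 2 at 59 and 41 bases. These 3 windows are printed 5′ to 3′ on the gene's strand up to the first annotated GENCODE exon, with matches in capitals; the nearer match of Tac1 falls inside an annotated exon and is not shown.
Tac1, chr6:7554811-7554878, plus strand: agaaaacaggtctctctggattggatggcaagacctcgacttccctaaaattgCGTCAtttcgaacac
Slc35d3, chr10:19851460-19851709, minus strand: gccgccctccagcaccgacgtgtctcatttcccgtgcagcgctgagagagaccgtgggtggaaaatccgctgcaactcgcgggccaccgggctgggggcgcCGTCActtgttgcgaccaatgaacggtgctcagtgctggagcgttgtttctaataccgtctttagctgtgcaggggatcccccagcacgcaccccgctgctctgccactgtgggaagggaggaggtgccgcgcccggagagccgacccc
Isl1, chr13:116309690-116309938, minus strand: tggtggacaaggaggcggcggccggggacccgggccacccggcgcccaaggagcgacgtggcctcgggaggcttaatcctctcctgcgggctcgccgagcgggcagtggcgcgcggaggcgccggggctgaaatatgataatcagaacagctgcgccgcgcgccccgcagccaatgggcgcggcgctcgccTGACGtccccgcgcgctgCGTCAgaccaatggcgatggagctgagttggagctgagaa
A match describes the letters only. Slc35d3 and Isl1 followed Drd1 across libraries and were lower after scaling, and Tac1 followed Drd1 and was not lower, so the 3 genes with a match did not share a direction.

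The signs of 7 of the 9 fold changes turned when 1 library was left out. Without OE replicate 3, or without control replicate 2, the log2 fold changes of Drd1 (0.21 and 0.21), Pdyn (0.07 and 0.15), Ebf1 (0.06 and 0.05) and Slc35d3 (0.09 and 0.10) were positive. Tac1 was negative without OE replicate 1 (−0.12), Chrm4 without OE replicate 1 (−0.06) and without control replicate 3 (−0.05), and Eya1 without OE replicate 2 (−0.10) and without control replicate 2 (−0.13). Isl1 was negative whichever library was left out, from −0.72 to −0.17, and scaled to Ppp1r1b from −0.55 to −0.36. Sfxn1 was positive whichever library was left out, from 0.017 to 0.058. Without OE replicates 1 and 2, which stood high in choroid plexus markers, the median over the 9 genes was −0.58 and that of Ppp1r1b −0.59, with 0 members called; this fit sets OE replicate 3 alone against control.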

How the data were processed

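Total RNA from mouse striatum was isolated with Trizol and strand-specific TruSeq libraries were made, per the labels' protocols. The deposited files held raw counts per Ensembl gene, 1 file per sample. FastQC 0.11.5, STAR 2.5.3a, Cuffnorm, DESeq 1.16.1 and build mm10 are named, with no roles, in the submitters' processing notes. Which program made the counts, how it used strand and which annotation it read is not stated in the sources used here. No exon of a member overlaps an exon of another gene in GENCODE M21, which matched 55154 of 55335 identifiers.

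Groups were taken from sample titles. The test was run in R 4.3.3 with edgeR 4.0.16 (TMM factors, filterByExpr, robust quasi-likelihood F-tests, Benjamini-Hochberg over 19809 genes); all 9 members passed the filter. CPM used TMM-adjusted library sizes. Scaled values are log2 CPM (prior count 2) minus that of Ppp1r1b. Intervals came from the moderated fit. Tests were tried on simulated data. No 2 libraries of a group were near-copies (chi-square per gene of at least 20.9). DESeq2 1.42.0 was an alternative. Named genes were the members, Ppp1r1b, Pde5a, Drd2, Adora2a and Penk, the 5 nearest to Drd1 (1 of them is not reported here), up to 3 genes per pathway list with the smallest p and the leading markers of other cell types. Members and lists were chosen with earlier results of these data known. Of 11 indirect-pathway genes listed, 10 were analysed here.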

Additional observations from a re-analysis of the deposited data

How the results depend on the processing

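In 12 other fits 0 of the 9 direct-pathway genes were called, and their 108 log2 fold changes held the sign of the reported value in all but 22. Genes called over the whole table numbered 1 in the reported fit, 83 with the DESeq2 Wald test, 3 without a filter on low counts, 3 with the replicate block, 6 with the cortical level as a covariate, 5 without OE replicates 1 and 2, and 1 to 2 when 1 library was left out; the cause was not tested. With the cortical covariate Drd1 was at 0.17, Pdyn 0.083, Eya1 −0.022, Ebf1 0.015, Slc35d3 0.046, Drd2 0.11, Adora2a 0.064 and Penk 0.031. Without OE replicates 1 and 2 the median of the members was −0.58, and Tac1 was at −0.58, Eya1 −0.24, Chrm4 −0.20, Sfxn1 −0.024 and Ppp1r1b −0.59. Leaving out 1 library gave ranges of −0.28 to 0.21 for Drd1, −0.12 to 0.36 for Tac1, −0.26 to 0.15 for Pdyn, −0.13 to 0.12 for Eya1, −0.46 to 0.060 for Ebf1, −0.063 to 0.27 for Chrm4, −0.39 to 0.10 for Slc35d3, −0.20 to 0.23 for Ppp1r1b, −0.32 to 0.16 for Drd2, −0.42 to 0.11 for Adora2a and −0.41 to 0.10 for Penk, and of −0.26 to 0.10 for the members' median. Scaled to Ppp1r1b, the ranges were −0.32 to 0.32 for Eya1, −0.022 to 0.19 for Chrm4 and −0.20 to 0.23 for Sfxn1. Pdyn was at 0.063 scaled without OE replicates 1 and 2, Drd1 at 0.016 scaled to Rgs9 and at 0.0083 in the fit with the shared genes as library size, and Eya1 at −0.027 in that with Ppp1r1b. The 27 alternative values of the pair ratios kept their sign.

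The replicate numbers are not stated to pair the samples. Deviations of same-numbered libraries correlated across genes at −0.02, 0.03 and 0.29. OE replicate 1 correlated best with control replicate 2 (0.35). These deviations, taken within groups of 3, also hold any difference in the tissue dissected, so they cannot decide whether samples were paired. With the replicate block Ppp1r1b was at −0.014, 0 members were called, and the sign-flip p of the scaled Isl1, Ebf1 and Slc35d3 was 0.25, the smallest 3 pairs can give. Each member had at least 239 counts in every library. Counting error was not measured and need not be small where the spread was small. Sfxn1 had an SD of 0.04 in log2 CPM. The scaled OE values of Isl1, 6.44 ± 0.174 (SD, n = 3), came from 472, 352 and 239 counts. The 3 samples per group limit what can be shown.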
